A study of Drosophila melanogaster with 18 samples.

Results

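The genes of the mitochondrial genome were followed in third-instar larvae of Drosophila melanogaster in which the muscle driver mef2 expressed either lacZ, as the control, or the kinase NUAK. The members were the genes that the deposited count files place on chromosome M and whose FlyBase symbol begins with mt:, 35 of the 17411 genes counted. They comprise 13 protein-coding genes and 22 tRNA genes. The ribosomal RNA genes mt:lrRNA and mt:srRNA are not analysed here.

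The mitochondrial genome encodes a small set of hydrophobic core subunits of the respiratory chain and of ATP synthase, together with tRNAs for their translation. The nucleus encodes the remaining subunits of the same complexes, and also the polymerase and the factors that transcribe, process and stabilise mitochondrial RNA. Long transcripts from both strands are cut, largely at the tRNAs that lie between the coding genes, and the mature messengers are then degraded at their own rates. In Drosophila larvae, body wall muscle is a tissue rich in mitochondria.

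The 18 libraries formed 6 groups of 3. The genotypes were mef2>lacZ, mef2>NUAK548 and mef2>NUAK550, all raised at 25 °C, and each was sequenced from whole larvae and from dissected muscle carcass. The labels give the genotype of both NUAK groups as NUAK overexpression and do not say what 548 and 550 stand for. They give no sex, and separate crosses or cultures behind the libraries are not stated, so p-values measure the spread between these libraries. All larvae carry the mef2 driver, and NUAK and the background of each line cannot be told apart.

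The libraries held 14577914 to 22341807 counts each. Nuak itself, in counts relative to the library total (CPM) scaled by the trimmed mean of M values (TMM) within each preparation, ran from 338 to 379 in lacZ muscle, from 1853 to 2813 in NUAK548 muscle and from 3368 to 4248 in NUAK550 muscle. In whole larvae the ranges were 67.9 to 123, 1335 to 1498, and 2668 to 2839.9. All 12 muscle markers were detected in every group. The RNAs roX1 and roX2, made in male flies for dosage compensation, differed between groups, with a summed level of 408 to 464 in lacZ muscle, 115 to 283 in NUAK548 muscle and 49.4 to 55.2 in NUAK550 muscle. In whole larvae they summed to 201 to 236 in lacZ, to 226, 26.9 and 22.9 in NUAK548 libraries 1, 2 and 3, and to 28.4 to 33.6 in NUAK550, where roX2 was at 0. The male germline markers, 8 of 9 matched, followed the same libraries in whole larvae, at 164 to 196 in lacZ, 229 in NUAK548 library 1, 3.32 and 3.02 in NUAK548 libraries 2 and 3, and 2.43 to 4.17 in NUAK550. The part of sex composition in the results below was not tested. In bulk libraries, fewer cells of a type and less RNA per cell cannot be told apart.

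The coding genes lie on both strands of the genome. Per the deposited coordinates (build BDGP6, chromosome M), 9 are on the plus strand, in the order mt:ND2 (240 to 1265), mt:CoI (1474 to 3009), mt:CoII (3083 to 3767), mt:ATPase8 (3907 to 4068), mt:ATPase6 (4062 to 4736), mt:CoIII (4736 to 5524), mt:ND3 (5608 to 5961), mt:ND6 (9970 to 10494) and mt:Cyt-b (10498 to 11634). The other 4 are on the minus strand, namely mt:ND5 (6402 to 8124), mt:ND4 (8206 to 9544), mt:ND4L (9544 to 9834) and mt:ND1 (11720 to 12658). Some neighbours share bases on the same strand. These are mt:ATPase8 and mt:ATPase6 with 7 bases, mt:ATPase6 and mt:CoIII with 1, and mt:ND4 and mt:ND4L with 1. How reads over 2 genes, and reads of either strand, were counted is not given in the sources used here, so values of mt:ATPase8 and mt:ND4L in particular could depend on that setting.

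The 7 ND genes encode subunits of complex I, NADH dehydrogenase, which passes electrons from NADH to ubiquinone. mt:Cyt-b encodes cytochrome b of complex III. The 3 Co genes encode the catalytic core of complex IV, cytochrome c oxidase, where oxygen is reduced. mt:ATPase6 and mt:ATPase8 encode subunits of the membrane part of complex V, ATP synthase. All 13 coding genes were counted in every library, from 127 to 609009 counts.

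In lacZ muscle the coding genes took 8.11%, 10.03% and 8.996% of all counts in libraries 1, 2 and 3, a mean of 9.04% ± 0.962 (SD, n = 3). The NUAK548 muscle libraries had 3.46%, 4.97% and 7.33%, all below the lacZ range, with a mean of 5.25% ± 1.95. The NUAK550 muscle libraries had 7.38%, 7.02% and 6.07%, also below the lacZ range and overlapping NUAK548, with a mean of 6.83% ± 0.677. The NUAK548 libraries differed from one another more than those of either other group. In whole larvae the lacZ libraries had 2.46%, 2.20% and 1.71% (mean 2.12% ± 0.379). The NUAK548 libraries had 0.954%, 1.92% and 1.09% (mean 1.32% ± 0.526), and library 2 lay inside the lacZ range. The NUAK550 libraries had 1.92%, 2.04% and 2.29% (mean 2.08% ± 0.189), inside the lacZ range. No test was made on these sums.

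**Figure D1:**
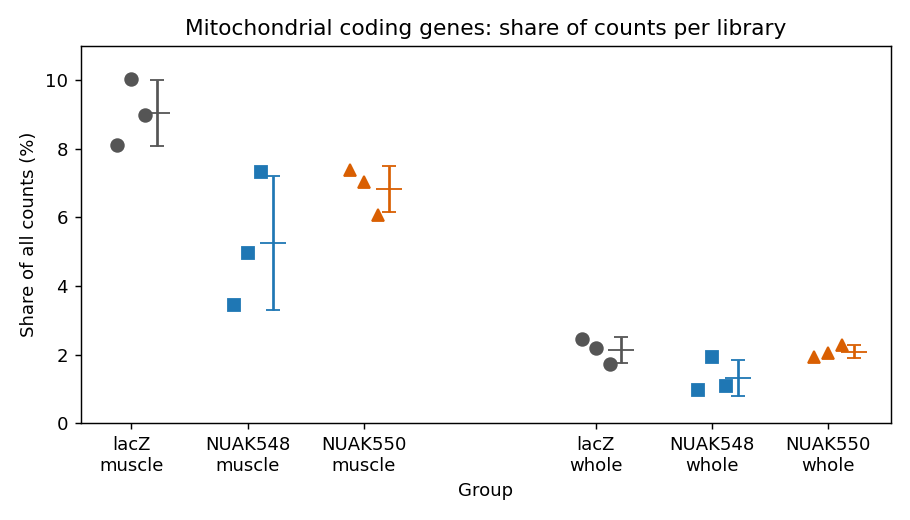
Share of all counts (%) held by the 13 mitochondrial coding genes, by group. Each point is 1 library in the order 1, 2, 3, and the bar beside the points is the mean with its SD over 3 libraries. The 6 NUAK muscle libraries lie below the 3 lacZ muscle libraries, whose lowest value is 8.11%.

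Levels differed widely between the coding genes. Per kilobase of gene, as TMM-scaled CPM in lacZ muscle (mean ± SD, n = 3), mt:CoI stood at 20015 ± 2722 and mt:CoIII at 19914 ± 3502. mt:Cyt-b followed at 11120 ± 1390, mt:CoII at 10737 ± 1386 and mt:ATPase6 at 9164 ± 1754. These 5 form 2 steps, and within each step neighbours differed by less than the larger of their SDs. A lower step held mt:ND4 at 3523 ± 382, mt:ND5 at 3362 ± 429, mt:ND1 at 3057 ± 319 and mt:ND3 at 2788 ± 468, again with neighbours within their SD. mt:ND2 at 429 ± 127, mt:ATPase8 at 414 ± 95.2 and mt:ND4L at 378 ± 98.3 lay lower still and overlapped. mt:ND6 was lowest at 150.4 ± 22.6. The order was much alike elsewhere, as mt:ND6 ranked 13 and mt:ND3 ranked 9 of 13 in all 6 groups, and mt:CoI and mt:CoIII held the top 2 ranks in all 6. The highest gene per kilobase exceeded the lowest by 133-fold in lacZ muscle and by 202-fold in NUAK548 whole larvae, the narrowest and the widest of the 6 groups.

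Coding genes that adjoin on one strand, some of which share a messenger in animals, were counted at very different levels. Per kilobase, mt:ATPase6 exceeded mt:ATPase8 by 17.4-fold to 25.3-fold over the 18 libraries. mt:ND4 exceeded mt:ND4L by 5.41-fold to 11.7-fold. mt:Cyt-b exceeded mt:ND6, its upstream neighbour, by 63.3-fold to 123-fold. mt:ATPase8 and mt:ND4L are the shortest coding genes, at 162 and 291 bases, and the part of length in these ratios was not tested.

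The comparison of lacZ muscle with lacZ whole larvae asked how strongly the dissected muscle carcass holds these transcripts. In a model of all 18 libraries, tested with edgeR's quasi-likelihood F test and Benjamini-Hochberg adjustment over 12429 genes, 18 of the 19 tested members were higher in muscle at an adjusted p below 0.05. Of all genes tested, 59.5% were called in this comparison and 22.4% were called higher in muscle, and the median over all genes was -0.21 (log2). All 13 coding genes were called, with log2 differences from 2.13 for mt:ND2 (SE 0.40, adjusted p 0.000524) to 2.77 for mt:ATPase8 (SE 0.34, adjusted p 1.78e-05) and a median of 2.57. mt:CoI was 6.41-fold higher, with 33533 to 41641 CPM in lacZ muscle and 4763 to 6481 in lacZ whole larvae on the scale of that model. The muscle libraries lay above the whole-larva libraries without overlap for all 19 tested members, against 24.8% of all genes. Of 68 tested nuclear genes of the same complexes, 66 were called higher and 1 lower, with a median of 1.18. The ratio of mitochondrial coding counts to counts of those nuclear genes ran from 7.56 to 9.34 in lacZ muscle and from 3.03 to 3.51 in lacZ whole larvae.

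The comparison of NUAK548 with lacZ in muscle asked which members differed where the driver is active. Of 19 tested members, mt:ND2 and mt:ND4L fell and no member rose at an adjusted p below 0.05 over 9821 genes. Of all genes tested, 5.56% were called in this comparison and 2.96% were called lower. DESeq2 called 10 members, where it called 10.7% of the genes it tested. All 13 coding genes had negative differences from lacZ, from -1.58 to -0.63 (log2) with a median of -0.87, where the median of all genes was 0.01. An unadjusted p below 0.05 was reached by 12 of the 13, where 22.2% of all genes reached it, and the exception was mt:ATPase8. In 11 of the 13, the NUAK548 libraries lay below the lacZ libraries without overlap, as did 13.3% of all genes. The 2 that overlapped were mt:ATPase6 and mt:ATPase8.

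Among the coding genes, those of complex I had the largest differences in this comparison. mt:ND2 measured 541, 485 and 293 CPM in lacZ muscle, 99.3, 108 and 234 in NUAK548, and 298, 299.7 and 354 in NUAK550. Each NUAK548 library was below each lacZ library, while the NUAK550 libraries fell within the lacZ range. Against lacZ, mt:ND2 was 2.99-fold lower in NUAK548 (log2 -1.58, SE 0.35, adjusted p 0.0392 by edgeR).

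mt:ND4L measured 138, 111 and 80.8 CPM in lacZ muscle, 30.8, 42.1 and 66.2 in NUAK548, and 88.9, 79.1 and 84.7 in NUAK550. The NUAK548 values again lay below all lacZ values, and NUAK550 overlapped lacZ. The NUAK548 difference was 2.37-fold (log2 -1.25, SE 0.28, adjusted p 0.04 by edgeR). Both calls are close to the threshold and were lost without any 1 of 7 of the 9 muscle libraries. The 2 libraries whose removal kept both calls were lacZ 3 and NUAK548 3, and without NUAK548 library 3 the count of called members rose to 8. The share of all genes called without that library is not given here, so the 8 cannot be read as particular to these members.

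mt:ND3 measured 854, 1173 and 934 CPM in lacZ muscle, 226, 382 and 613 in NUAK548, and 779, 659.8 and 609 in NUAK550. Both NUAK groups lay below lacZ here, and the NUAK548 difference of -1.28 (SE 0.32) had an adjusted p of 0.058. mt:ND4 measured 4509, 5299.6 and 4343 in lacZ, 1381, 2065 and 3371 in NUAK548, and 3943, 3356 and 3219 in NUAK550. The groups did not overlap between lacZ and either NUAK group, with a NUAK548 difference of -1.05 (SE 0.29, adjusted p 0.0759). mt:ND5, mt:ND6 and mt:ND1 had NUAK548 differences of -1.01, -1.06 and -0.87 with adjusted p of 0.0771, 0.0821 and 0.115. Each of the 7 ND genes thus had a lower point value than each of the 6 coding genes of the other complexes, and the difference between the complexes was not tested.

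Outside complex I, mt:Cyt-b measured 11366, 14411 and 12152 CPM in lacZ muscle, 4717, 7321 and 10420 in NUAK548, and 12659, 10755 and 9708 in NUAK550. Its NUAK548 difference was -0.76 (SE 0.27, adjusted p 0.147), with no overlap between NUAK548 and lacZ. mt:CoI measured 27160, 35335 and 29734 in lacZ, 10990, 18579 and 26494 in NUAK548, and 28206, 23947 and 22916 in NUAK550. NUAK548 lay below lacZ and overlapped NUAK550, and the NUAK548 difference was -0.72 (SE 0.29, adjusted p 0.19). mt:CoII and mt:CoIII had differences of -0.83 and -0.71 with adjusted p of 0.148 and 0.157. mt:ATPase6 measured 5385, 7546 and 5626 in lacZ, 2361, 3949 and 5409 in NUAK548, and 7337, 7214 and 6474 in NUAK550, and mt:ATPase6 had a NUAK548 difference of -0.66 (SE 0.28, adjusted p 0.207). mt:ATPase8 had -0.63 (SE 0.29, adjusted p 0.257).

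**Figure D2:**
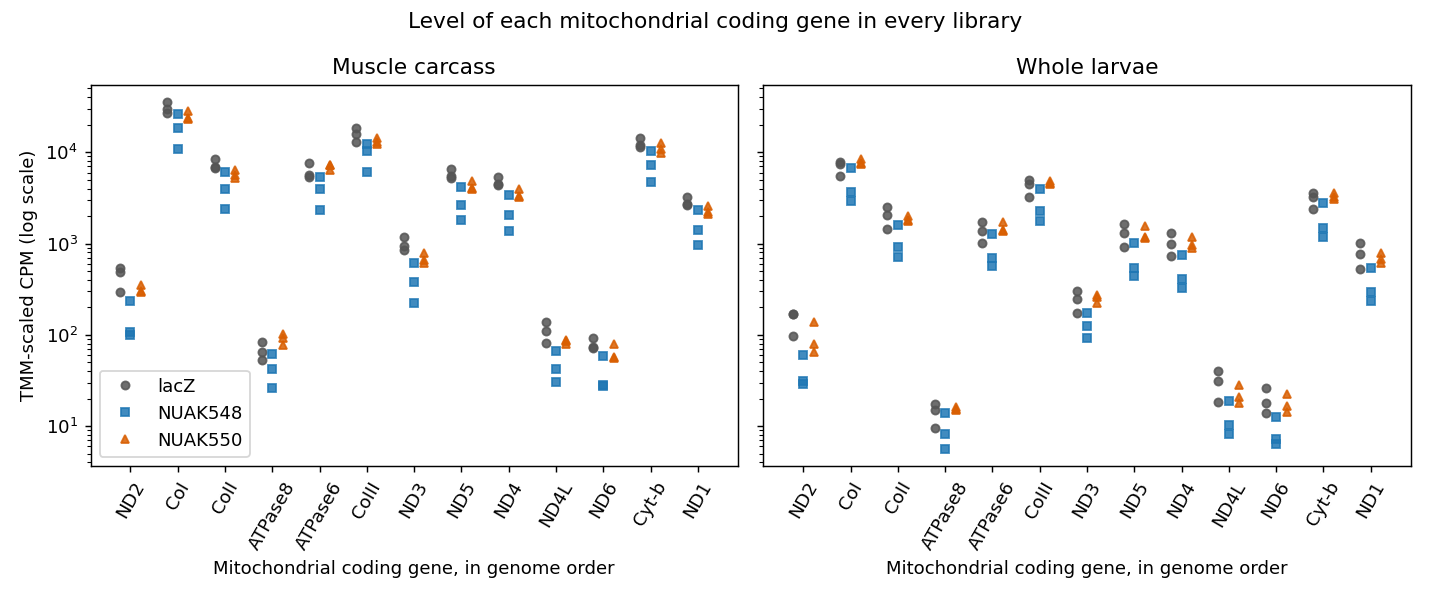
TMM-scaled CPM (log axis) of each mitochondrial coding gene, in genome order, in every library of muscle carcass and of whole larvae, with lacZ as circles, NUAK548 as squares and NUAK550 as triangles. Levels were scaled within each preparation. In muscle the 3 NUAK548 points lie below the lacZ points for 11 of 13 genes, and mt:CoI and mt:CoIII are the highest.

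The NUAK548 muscle libraries did not shift by the same amount. Relative to the lacZ mean, the median over the 13 coding genes was -1.57 (log2) in library 1, -1.01 in library 2 and -0.33 in library 3, beside -0.14, 0.20 and -0.08 in the lacZ libraries. Over the 13 genes the values ran from -2.15 to -1.35 in library 1, from -2.03 to -0.61 in library 2 and from -0.91 to -0.11 in library 3, and mt:ND2 was the lowest in each. The median coefficient of variation over the coding genes was 41.9% in NUAK548 muscle, 15.01% in lacZ muscle and 10.97% in NUAK550 muscle. The summed level of the 12 muscle markers was 25945, 77889 and 49743 CPM in NUAK548 libraries 1, 2 and 3, against 41315 to 63302 in lacZ. The roX sum was 283, 214 and 115 in the same libraries. The part of either in the mitochondrial shift was not tested, and an order over 3 libraries cannot decide it. Markers of other cell types were read beside the members. The 6 salivary gland markers lay below lacZ without overlap, at a sum of 16.9 to 64.9 CPM against 127 to 1045, and 0 of 6 were called by edgeR while 5 had an unadjusted p below 0.05. The 5 hemocyte (blood cell) markers all had positive differences, with a sum of 563 to 952 against 407 to 592. Of these, the receptor genes eater (0.72, adjusted p 0.0124) and NimC1 (1.08, adjusted p 0.042) were called higher. Of all genes, 5.56% were called, 22.2% had an unadjusted p below 0.05 and 13.3% lay below lacZ without overlap. The 6 tested midgut markers all had negative differences, 2 of them with an unadjusted p below 0.05 by edgeR. Of 6 neuron markers 5 were positive, and 1 had such a p. No midgut or neuron marker was called. The 6 fat body markers, all detected, summed to 3786 to 5829 in NUAK548 and 5292 to 13225 in lacZ muscle. All 6 had negative differences, with a median of -0.93, and 2 lay below lacZ without overlap. Of them 1 had an unadjusted p below 0.05 by edgeR and 0 were called. The 12 muscle markers had 5 positive and 7 negative differences, with 0 at an unadjusted p below 0.05 by edgeR. The part of these cell types in the result was not tested.

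NUAK550 was compared with the same 3 lacZ muscle libraries, so the 2 comparisons are not independent. No member was called by edgeR, none had an unadjusted p below 0.05, and DESeq2 also called 0. Of all genes, 12.6% were called by edgeR and 28.4% had an unadjusted p below 0.05, and DESeq2 called 16.3% of the genes it tested. The coding genes had a median difference of -0.33 (log2), with 11 of 13 negative, from -0.53 for mt:ND3 (SE 0.32, adjusted p 0.31) to 0.43 for mt:ATPase8 (SE 0.29, adjusted p 0.382). The 5 genes mt:ND1, mt:ND3, mt:ND4, mt:ND5 and mt:CoII lay below lacZ without overlap, as did 16.3% of all genes. mt:ATPase8 measured 53.1, 83.6 and 64.5 CPM in lacZ, 26.3, 42.1 and 62.1 in NUAK548, and 101, 92.4 and 76.7 in NUAK550. mt:ATPase8 and mt:ATPase6 (0.18, SE 0.28, adjusted p 0.716) were the 2 coding genes with positive values, and neither passed the test. The muscle markers had positive differences in the same comparison for 12 of 12, a median of 0.98 and a sum of 82132 to 122360 CPM against 41315 to 63302 in lacZ, and Act57B and Mlp60A, which encode a muscle actin and a muscle LIM protein, were called higher. The hemocyte markers He (0.84, adjusted p 0.0134) and NimC1 (2.08, adjusted p 0.00254) and the neuron marker para (1.05, adjusted p 0.0391) were called higher, and both roX RNAs were called lower. The part of these differences in the result was not tested.

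For both NUAK groups averaged and compared with lacZ in muscle, 0 of 19 members were called by edgeR, 9 had an unadjusted p below 0.05 and DESeq2 called 5. Over all genes these shares were 10.6%, 26.7% and 15%, in the same order. The coding median was -0.60 and the lowest adjusted p was 0.0578. Without NUAK548 library 3 the count was 9, and without NUAK548 library 1 it was 1, mt:ND3. The shares of all genes called without those libraries are not given here, so neither count can be read as particular to the members. NUAK550 against NUAK548 in muscle gave 0 called members by edgeR, 8 at an unadjusted p below 0.05 and 4 by DESeq2, where the shares of all genes were 1.45%, 20.6% and 8.37%. All 13 coding values were higher in NUAK550, with a median of 0.63. The NUAK550 libraries lay above NUAK548 without overlap for mt:ND2, mt:ND4L, mt:ATPase6 and mt:ATPase8, and for 13.4% of all genes.

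**Figure D3:**
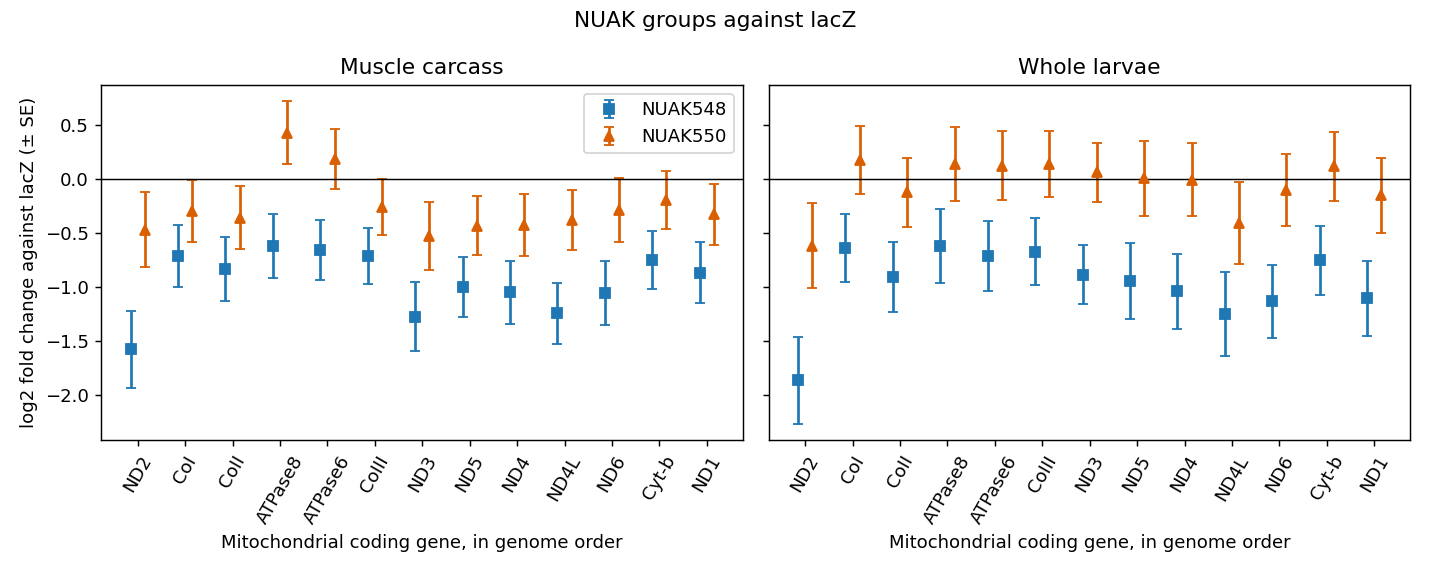
log2 fold change against lacZ, with its SE, of each mitochondrial coding gene for NUAK548 (squares) and NUAK550 (triangles), in muscle carcass and whole larvae, from 3 libraries a group. NUAK548 values are negative for all 13 genes in both preparations, and mt:ND2 is lowest in each, at -1.58 and -1.87.

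Counts within the mitochondrial set were also divided differently between groups, which does not depend on library scaling. mt:ATPase6 held 6.92%, 7.45% and 6.69% of the mitochondrial coding counts in lacZ muscle, 7.60%, 7.78% and 7.54% in NUAK548 muscle, and 9.003%, 10.1% and 9.66% in NUAK550 muscle. The 3 groups did not overlap, with NUAK550 highest. In whole larvae the mt:ATPase6 share was 6.14% to 6.97% in lacZ, 6.61% to 6.87% in NUAK548 and 6.37% to 6.96% in NUAK550, and the groups overlapped. mt:ATPase8 followed, with 0.0683% to 0.0826% in lacZ muscle, 0.0830% to 0.0865% in NUAK548 muscle and 0.114% to 0.1298% in NUAK550 muscle. Most coding genes did not separate the 3 muscle groups. Besides the ATPase genes, only mt:ND3 and mt:ND4 did. mt:Cyt-b held 14.2% to 14.6% in lacZ, 14.4% to 15.2% in NUAK548 and 14.5% to 15.5% in NUAK550. Groups also overlapped for mt:CoI, mt:CoII, mt:CoIII, mt:ND1, mt:ND2, mt:ND4L, mt:ND5 and mt:ND6. A higher share within the set shows unequal change among the genes and not that any one rose. Shares of a library divide one total, so higher shares of some genes and lower shares of others are not separate results.

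The complex I genes together held 16.3% to 18.3% of the coding counts in lacZ muscle, 13.1% to 15.1% in NUAK548 muscle and 15.03% to 15.5% in NUAK550 muscle. Both NUAK groups were below lacZ. mt:ND3 held 1.10% to 1.16% in lacZ muscle, 0.728% to 0.854% in NUAK548 and 0.909% to 0.956% in NUAK550, and the 3 groups did not overlap. mt:ND2 held 0.695%, 0.479% and 0.349% in lacZ muscle and 0.319%, 0.213% and 0.326% in NUAK548 muscle. In NUAK550 muscle it held 0.365%, 0.421% and 0.528%, inside the lacZ muscle range. In whole larvae the mt:ND2 share was 0.683%, 0.749% and 0.612% in lacZ, 0.381%, 0.314% and 0.277% in NUAK548, and 0.308%, 0.363% and 0.569% in NUAK550. Both whole-larva NUAK groups lay below lacZ in that share. The minus-strand genes, all of complex I, held 14.8% to 16.4% of coding counts in lacZ muscle, 12.1% to 13.9% in NUAK548 and 13.6% to 14.03% in NUAK550. These shares are described without a test.

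**Figure D4:**
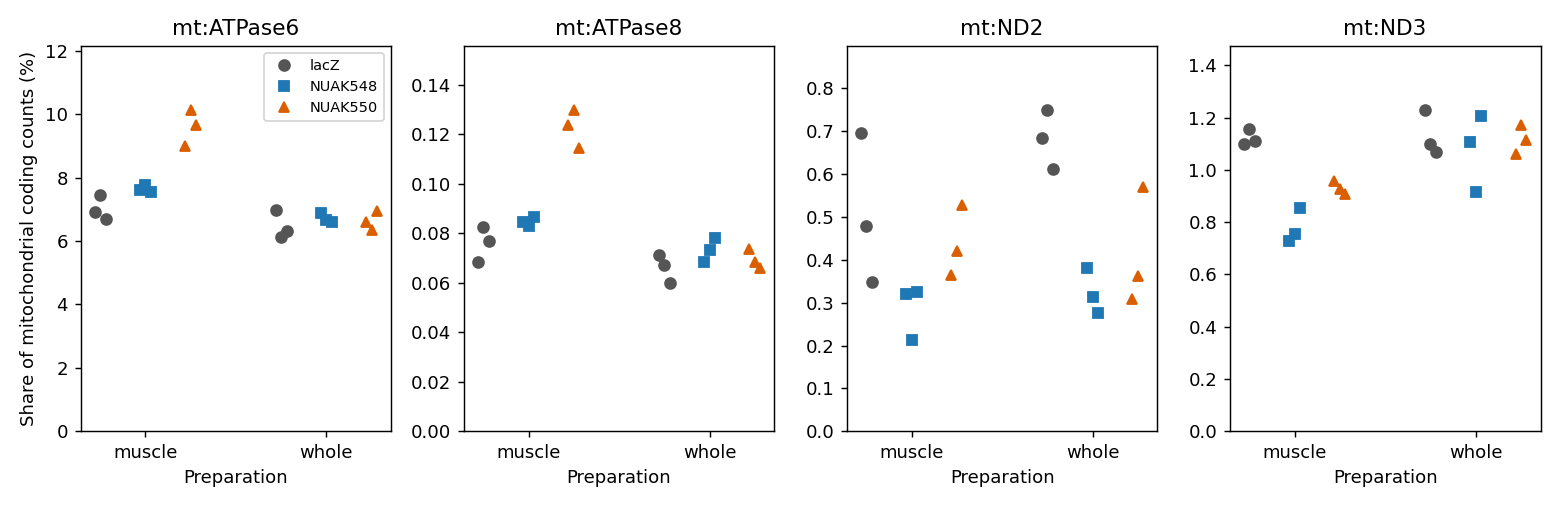
Share (%) of the mitochondrial coding counts held by mt:ATPase6, mt:ATPase8, mt:ND2 and mt:ND3 in each library of muscle and of whole larvae, with lacZ as circles, NUAK548 as squares and NUAK550 as triangles. In muscle the NUAK550 libraries are highest for both ATPase genes, with mt:ATPase6 at 9.003% to 10.1%, and NUAK548 is lowest for both ND genes.

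For NUAK548 against lacZ in whole larvae, edgeR called 0 of 17 tested members, 11 had an unadjusted p below 0.05 and DESeq2 called 5. Over 12255 genes, 0.155% were called by edgeR and 10.5% had an unadjusted p below 0.05, and DESeq2 called 3.95% of the genes it tested. All 13 coding values were negative, with a median of -0.91. mt:ND2 measured 169.1, 169.5 and 98.4 CPM in lacZ, 31.6, 59.5 and 28.8 in NUAK548, and 65.0, 79.6 and 139.5 in NUAK550. The NUAK548 libraries lay below lacZ without overlap for mt:ND2 and mt:ND6 among the coding genes, and for 6.74% of all genes. The mt:ND2 difference was -1.87 (SE 0.40, adjusted p 0.157). mt:ND4L, mt:ND6, mt:ND1 and mt:ND4 came next, at -1.25, -1.14, -1.11 and -1.04, and their adjusted p ran from 0.292 to 0.336. Without NUAK548 library 1, the library in which the male germline markers were high, mt:ND2 was called at -1.74 with an adjusted p of 0.0308 by edgeR. The share of all genes called without that library is not given here. The median shifts of NUAK548 libraries 1, 2 and 3 were -1.52, -0.34 and -1.14. The male germline markers were high in library 1 and low in libraries 2 and 3, and their part in the shift was not tested.

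For NUAK550 against lacZ in whole larvae, edgeR called 0 members, none had an unadjusted p below 0.05 and DESeq2 called 0, where the shares of all genes were 0.808%, 34.6% and 19.2%. The coding median was 0.0025, with 7 values positive and 6 negative, from -0.62 for mt:ND2 (SE 0.39, adjusted p 0.304) to 0.17 for mt:CoI (SE 0.32, adjusted p 0.733). The signs of these values depended on single libraries, with 2 to 12 of the 13 negative over the alternatives tried. The 12 muscle markers summed to 28213 to 33926 CPM in NUAK550 whole larvae and to 2757 to 11453 in lacZ whole larvae, and their part in this comparison was not tested. The ratio of mitochondrial coding counts to nuclear oxidative phosphorylation counts was 2.24 to 2.65 in NUAK550, 1.501 to 2.92 in NUAK548 and 3.03 to 3.51 in lacZ whole larvae. Both NUAK groups lay below lacZ in that ratio. The nuclear genes of the ratio held 0.771% to 1.02% of all counts in NUAK550 whole larvae, 0.582% to 0.659% in NUAK548 and 0.565% to 0.743% in lacZ. The mitochondrial coding share in NUAK550 whole larvae lay inside the lacZ range, so the lower NUAK550 ratio does not show fewer mitochondrial transcripts. In muscle the ratio was 5.32 to 7.32 in NUAK550, below the lacZ range of 7.56 to 9.34. It was 6.08, 5.65 and 9.97 in NUAK548 libraries 1, 2 and 3, so library 3 lay above every lacZ muscle library.

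The mean of both NUAK groups against lacZ in whole larvae gave 0 called members by edgeR, 4 at an unadjusted p below 0.05 and 1, mt:ND2, by DESeq2, beside 0.424%, 29% and 10.8% of all genes. The coding median was -0.47. NUAK550 against NUAK548 gave 0 by edgeR, 11 at an unadjusted p below 0.05 and 3 by DESeq2, namely mt:ND2, mt:ND3 and mt:ND4, beside 0.139%, 21.4% and 8.31% of all genes. All 13 coding values were higher in NUAK550, with a median of 0.87. The NUAK550 libraries lay above NUAK548 without overlap for 12 of 13, the exception being mt:ND4L, and for 14.5% of all genes.

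Whether the mean NUAK difference itself differed between muscle and whole larvae was tested as an interaction over all 18 libraries. edgeR called 0 of 19 members, none had an unadjusted p below 0.05 and DESeq2 called 0, beside 2.04%, 17.7% and 7.01% of all genes. The coding values, muscle minus whole, ran from -0.43 for mt:ND3 (SE 0.37, adjusted p 0.587) to 0.28 for mt:ND2 (SE 0.47, adjusted p 0.828), with a median of -0.01, where the median of all genes was 0.11. The ratio of the mean coding share in muscle to that in whole larvae was 4.26 for lacZ, 3.97 for NUAK548 and 3.27 for NUAK550.

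The tRNA genes, which supply the tRNAs for mitochondrial translation, were counted very unevenly. mt:tRNA:Leu-TAG (12669 to 12733, minus strand, 65 bases) held 316933 counts over the 18 libraries, 98.3% to 99.2% of the tRNA counts of each library. It ends where the interval from 12734 to 14057 begins, in which the reference annotation places mt:lrRNA. mt:tRNA:Val-TAC, on the other side of that interval (14058 to 14130), held 1423 counts and was the next highest. The remaining tRNA genes ranged from 742 counts for mt:tRNA:Tyr-GTA down to 1 for mt:tRNA:Phe-GAA. Apart from mt:tRNA:Leu-TAG, no tRNA gene exceeded 9.88 CPM, relative to the library total, in any library. Mature tRNAs are short and heavily modified, and standard libraries capture them poorly, so these counts are not levels of the mature tRNAs. Filtering on low counts left 6 tRNA genes to test in muscle and 4 in whole larvae, and the 16 untested in muscle had 603 counts in all libraries together.

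mt:tRNA:Leu-TAG measured 2018, 2114 and 1656 CPM in lacZ muscle, 863, 983 and 1585 in NUAK548 muscle, and 1801, 1838 and 1813 in NUAK550 muscle. NUAK548 lay below lacZ without overlap and NUAK550 lay inside the lacZ range. The NUAK548 difference was -0.75 (SE 0.22, adjusted p 0.0917), and that of NUAK550 was -0.09 (SE 0.22, adjusted p 0.84). mt:tRNA:Val-TAC, with lacZ libraries at 6.63 to 7.43 CPM, NUAK548 libraries at 4.89 to 9.67 and NUAK550 libraries at 7.76 to 9.80, had a NUAK548 difference of -0.10 (SE 0.26, adjusted p 0.861). mt:tRNA:Cys-GCA, on 130 counts in all, had -1.69 (SE 0.46, adjusted p 0.0769). mt:tRNA:Tyr-GTA and mt:tRNA:Ala-TGC had -0.82 and -0.54, and mt:tRNA:Leu-TAA had -0.15, with adjusted p from 0.166 to 0.909. In lacZ, 5 of these 6 were called higher in muscle than in whole larvae, where 22.4% of all genes were called higher. The 5 ran from 1.15 for mt:tRNA:Tyr-GTA to 2.75 for mt:tRNA:Cys-GCA, and mt:tRNA:Leu-TAA (1.18, adjusted p 0.153) was not called. Some of these calls were lost without 1 library. mt:tRNA:Tyr-GTA was not called without lacZ muscle 1 (adjusted p 0.062) or 2 (0.0537), mt:tRNA:Ala-TGC without lacZ whole 3 (0.0682) or lacZ muscle 2 (0.0565), and mt:tRNA:Cys-GCA without lacZ whole 3 (0.0563).

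The nuclear genes that encode the other subunits of the same complexes were read beside the members. In muscle, 4 of 66 tested fell in NUAK548 at an adjusted p below 0.05 by edgeR and none rose, beside 5.56% of all genes called and 2.96% called lower, with a median of -0.54. They were ND-MWFE of complex I (-0.74), SdhD of complex II (-0.77), ox of complex III (-0.97) and COX7C of complex IV (-1.06). Of the 66, 65 had negative differences and 34 had an unadjusted p below 0.05 by edgeR, where 22.2% of all genes did. The NUAK548 libraries lay below lacZ without overlap for 29 of the 66, and for 13.3% of all genes. By complex, the medians were -0.40 for complex I (32 tested), -0.72 for II (4), -0.42 for III (8), -0.71 for IV (9) and -0.67 for V (13). In NUAK550 muscle, 0 of 66 were called and 5 had an unadjusted p below 0.05, beside 12.6% and 28.4% of all genes, and the median was 0.13. For the mean of the NUAK groups, SdhD (-0.58, adjusted p 0.0247) and COX7C (-0.71, adjusted p 0.0458) were called lower, 2 of 66 beside 10.6% of all genes called, with a list median of -0.21. In whole larvae 0 of 68 were called in either NUAK group. An unadjusted p below 0.05 was reached by 2 in NUAK548 and 32 in NUAK550, where the shares of all genes were 10.5% and 34.6%, and the medians were -0.17 and 0.37.

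Of 32 listed nuclear genes for mitochondrial RNA synthesis, processing, stability and translation, 29 were tested. In muscle, scu, which encodes a dehydrogenase that is also a subunit of mitochondrial RNase P, the enzyme that cuts tRNA 5′ ends from the primary transcripts, was the 1 called member in each comparison with lacZ, beside 5.56%, 12.6% and 10.6% of all genes for NUAK548, NUAK550 and their mean. The scu difference was -0.77 in NUAK548 (SE 0.11, adjusted p 0.00852) and -0.51 in NUAK550 (SE 0.11, adjusted p 0.0226), and -0.64 for their mean (SE 0.095, adjusted p 0.00556). mldr and rswl, which encode the other subunits of RNase P, were not called. PolrMT, the mitochondrial RNA polymerase, had 0.46 (SE 0.23, adjusted p 0.246) in muscle for the NUAK groups averaged, and TFAM, which packages mitochondrial DNA, had 0.14 (SE 0.079, adjusted p 0.295). bsf, which binds and stabilises mitochondrial messengers, had 0.32 (SE 0.15, adjusted p 0.215). In whole larvae no gene of the list was called by edgeR for either NUAK group, with 1 and 5 at an unadjusted p below 0.05, beside 10.5% and 34.6% of all genes. In lacZ, 7 of the 29 were called higher and 7 lower in muscle than in whole larvae, where 22.4% of all genes were called higher and 37.1% lower, with a list median of -0.04.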

How the data were processed

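RNA-seq counts per gene were deposited for 18 libraries, as raw counts made by the authors. Per the submitters' processing notes, Trimmomatic 0.36, STAR 2.5.2b, the BDGP6 build, featureCounts of Subread 1.5.2 and DESeq2 were used. How RNA was selected, and the strand, overlap and multi-mapping settings, could not be read from the labels. Normalized signal deposited by the authors, which is counts divided by 1 factor per library for 9402 genes in muscle and 11765 in whole larvae, served as 1 alternative. Identifiers were named from a reference annotation (17137 by identifier, 223 by position, 51 unnamed). Of the members, 16 have the same start and end there, and coordinates are those of the files. The header numbers of whole NUAK550 are not the label numbers, and the labels were followed.

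edgeR 4.0.16 in R 4.3.3 (filterByExpr, TMM, quasi-likelihood F test, two-sided, Benjamini-Hochberg over all tested genes, threshold 0.05) was fitted per preparation (9821 and 12255 genes, 6 residual degrees of freedom) and over 18 libraries (12429 genes, 12 degrees of freedom). SE is the log2 fold change over the square root of F. Alternatives were RLE, DESeq2 1.42.0, limma 3.58.1 on log2(value + 1), no filter, nuclear scaling, a replicate block, leaving out each library, and for shares a denominator without the 10 highest nuclear genes. Methods were tested on simulated data with the same spread for all genes and groups. The coding genes spread more in NUAK548 muscle than in the other muscle groups, so that check does not cover such uneven groups. The labels do not say that a replicate number marks paired samples. In whole larvae, same-numbered lacZ and NUAK548 libraries correlated at 0.14, 0.41 and 0.37 once group means were removed. Same-numbered pairs with NUAK550 ran from -0.04 to 0.25. The block, used only as an alternative, entered the replicate number of every library, in each preparation and in the model of 18 libraries. Libraries of a group differed by more than sampling noise (lowest chi-square per degree of freedom 42.3). Members and lists were chosen with earlier results of these data known. All coding genes are named, tRNA genes where tested, mitochondrial expression genes where called for the NUAK mean, and at most 5 called nuclear subunits per comparison; PolrMT, TFAM, bsf, mldr and rswl were added after their values were seen.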

Additional observations from a re-analysis of the deposited data

How the results depend on the processing

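For NUAK548 against lacZ in muscle the 2 calls were mt:ND2 and mt:ND4L in edgeR with RLE factors, without a filter, with nuclear scaling and in limma, while DESeq2 called 10 members, the replicate block 0, and leaving out 1 library 0 to 8. The model of 18 libraries also called 2, but mt:ND2 and mt:ND3. The coding median stayed negative in all 16 alternatives, from -1.26 to -0.62. For the averaged NUAK groups in muscle, where the count was 0, DESeq2 called 5, the model of 18 libraries 1, and leaving out 1 library 0 to 9. For NUAK550 against NUAK548 in muscle DESeq2 called 4. In whole larvae DESeq2 called 5 for NUAK548, 1 for the mean and 3 for NUAK550 against NUAK548, the model of 18 libraries called 1 for NUAK548 and 3 for the mean, and leaving out 1 library gave 0 to 1 for both. The cause of these differences was not tested. Shares of all genes called are not given for the fits that left out 1 library, so their counts cannot be read as particular to the members. NUAK550 against lacZ stayed at 0 in both preparations, as did the interaction, and lacZ muscle against whole kept 17 to 21 calls. Without the 10 highest nuclear genes in the denominator the coding share was 10.4% in lacZ muscle, 8.11% in NUAK550 muscle and 2.37% in NUAK550 whole larvae. The block changed no other count. In muscle, same-numbered libraries had correlations of -0.44 to 0.40 after group means were removed, and 1 of 9 libraries was closest to its own number. In whole larvae the correlations were -0.04 to 0.41, and 7 of 9 libraries were closest to their own number. The main models held the group only and left the replicate number out. limma over all 18 libraries was not run, as the deposited tables were normalized separately. Levels of tRNA genes other than mt:tRNA:Leu-TAG are limited by depth.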
